A study of Chlorocebus aethiops with 24 samples.

Results

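The genes described here are those of cell division and DNA replication in the hippocampus of the vervet monkey. They were chosen by name, with earlier results of these data known. A row of the expression table was taken where its annotation gave 1 gene symbol and that symbol began like a cyclin, a cyclin-dependent kinase (CDK), a numbered CDC gene, an MCM helicase subunit, a centromere protein, an origin recognition subunit, an E2F factor, an Aurora kinase, a BUB checkpoint gene, a subunit of replication factor C or a subunit of polymerase alpha, delta or epsilon. NASP and DSCC1, which match none of these patterns, were added singly, and the CDC42 family was left out. Counts and rankings of members below include both. The rule took 87 of 11512 rows, which stand for 84 different symbols, because AURKA, CDC37 and CDK11B had 2 probe sets each. No BUB gene was among them. A name is a loose guide to function, so the set also holds genes with other known work, such as CDC37, a co-chaperone of HSP90, CDK5R1, the neuronal activator of CDK5, and AURKAIP1, a protein of the mitochondrial ribosome.

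The animals were male vervets bred in captivity, labelled Chlorocebus aethiops, and the left hippocampus of each was measured on a rhesus macaque array. FASD animals at 2 years (n = 5), control animals at 2 years (n = 6), FASD animals at 5 months (n = 5) and control animals at 5 months (n = 6) were analysed. FASD animals had mothers that drank an ethanol solution in late gestation, and control animals had mothers given an isocaloric sucrose solution. All mothers were alcohol-preferring females, and the same female could serve in either condition in different years, so animals may be related, which the labels do not give. The model covers late gestational exposure through voluntary drinking, and the exposed offspring had neither facial changes nor growth deficits, as the study describes them. The study asked how fetal alcohol exposure and age each relate to hippocampal expression.

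As background, a cell that divides first loads the MCM helicase onto origins marked by the origin recognition complex. Cyclin and CDK pairs then fire these origins, DNA polymerases copy the strands, histone chaperones rebuild the chromatin, and a later cyclin and CDK pair drives mitosis, where the kinetochore joins chromosomes to the spindle. CDK inhibitors and E2F factors bound to the retinoblastoma proteins hold cells out of this cycle. In the hippocampus after birth most cells are neurons that no longer divide, and division goes on mainly in progenitors of the dentate gyrus and in glial precursors.

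The 22 arrays were alike, with correlations between 0.972 and 0.995 over all rows. FASD animal 2 at 5 months stood furthest apart, with a mean correlation of 0.979 with the other arrays. Control animal 6 at 5 months carried 1 label that gives 2 years, against 3 that give 5 months, and was placed at 5 months. Values without either animal are given beside the results of named genes whose side of the threshold they change. Hippocampal markers were present, with PROX1, a factor of dentate granule neurons, between 7.14 and 8.82 and NEUROD6, a factor of pyramidal neurons, between 9.07 and 10.45 log2 units. The arrays hold bulk tissue, in which fewer cells of a type and less RNA per cell cannot be told apart.

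The division and replication genes differed little between groups, and 1 of them, NASP, passed the test over all genes. NASP, which was added to the set singly, fell at 2 years relative to 5 months. No member passed for alcohol or for the interaction of alcohol and age. All values below are log2 intensities, a difference of 1 being a doubling, and each difference comes from 1 limma fit to all 22 arrays with p-values adjusted over all 11512 rows by the Benjamini-Hochberg method. An unadjusted p under 0.05 is used only to count genes and choose which to describe.

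For FASD against control, averaged over both ages, 7 of 87 members (8.05%) had an unadjusted p under 0.05, where 8.44% of all rows did. Of these 7, 5 were lower in FASD animals, where 6.01% of all rows were at that p and lower. None had an adjusted p under 0.05, and neither did any other row of the table (0.0%), the lowest adjusted p being 0.579. The median difference was -0.01 over the members and -0.01 over all rows, and every member lay within 0.25 of 0. The share of members was thus close to that of the whole table.

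For 2 years against 5 months, averaged over both exposures, 9 members (10.3%) had an unadjusted p under 0.05, where 9.57% of all rows did. Of these 9, 8 were lower at 2 years, where 4.89% of all rows were at that p and lower. NASP, added to the set singly, was among these and alone had an adjusted p under 0.05, a call made for 0.139% of all rows. The median age difference was -0.03 over the members and 0.00 over all rows, with 49 of 87 members and 5579 of 11512 rows below 0.

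The half-width of the 95% interval of a member's difference was 0.14 in the median for alcohol and for age, and it ran between 0.09 and 0.28. It is set by each gene's fit and is no common limit of detection. Around its group mean a member varied between animals by a standard deviation of 0.16 in the median, against 0.16 over all rows.

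**Figure D1:**
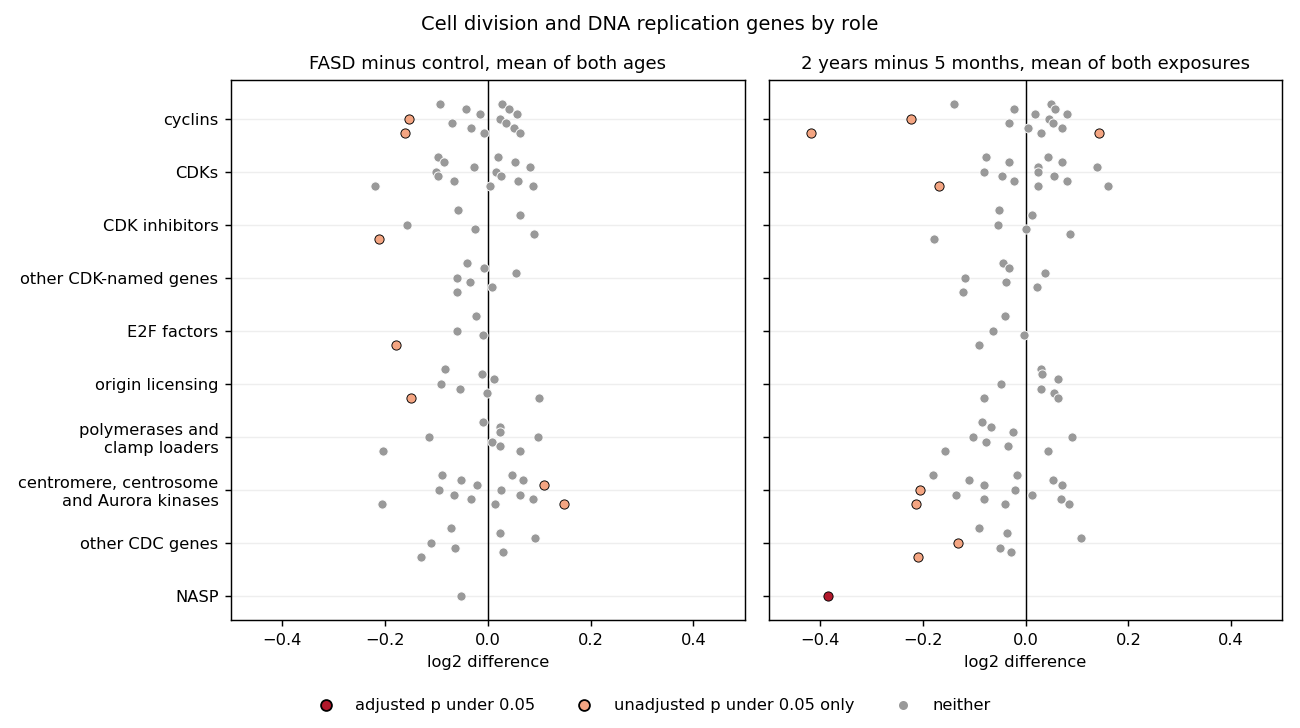
Log2 difference of each of the 87 member rows, for FASD minus control (left) and 2 years minus 5 months (right), with a row of points for each role. Red marks the 1 row with an adjusted p under 0.05 and orange those with only an unadjusted p under 0.05. NASP at -0.38 for age is the single red point, and for alcohol every point lies within 0.25 of 0.

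NASP encodes a histone chaperone that binds histones H3 and H4 and linker histone H1 and keeps a soluble histone supply for chromatin assembly. Its probe set (MmugDNA.29320.1.S1_at) had values of 7.72, 7.87, 7.90, 7.96 and 8.29 in FASD animals at 2 years and of 8.07, 8.21, 8.30, 8.34 and 8.43 in FASD animals at 5 months. In control animals the lowest, median and highest values were 7.74, 7.89 and 8.23 at 2 years and 8.29, 8.38 and 8.51 at 5 months. All 6 control animals at 2 years lay below every control animal at 5 months, while in FASD animals 4 of 5 at 2 years lay below every animal at 5 months.

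The age difference of NASP was -0.38 (SE 0.07, adjusted p = 0.0155 by limma), and an exact two-sided permutation of the animals within exposure gave p = 0.000103. It was -0.32 (SE 0.10) in FASD animals and -0.45 (SE 0.09) in control animals. The difference between these, the interaction, was 0.12 with a 95% interval of -0.16 to 0.41 (unadjusted p = 0.379). For alcohol the difference was -0.05 (95% interval -0.19 to 0.09). NASP kept an adjusted p under 0.05 for age in each of 30 alternative fits, between 0.00141 and 0.0459, those without FASD animal 2 (0.0377) and control animal 6 (0.0275) at 5 months among them.

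Some markers of immature neurons were lower at 2 years as well. SOX4, a factor of newly formed neurons, had an age difference of -0.62 (adjusted p = 0.00556 by limma), SOX11, its relative, of -0.61 (adjusted p = 0.0614), and DCX, a microtubule protein of migrating neurons, of -0.37 (adjusted p = 0.139). Of the 9 measured markers of progenitors and immature neurons, 3 had an unadjusted p under 0.05 for age, all lower at 2 years, where 4.89% of all rows were at that p and lower. The other 6, which include SOX2 and PAX6 of progenitors, had age differences between -0.02 and 0.10. The mean deviation of the 9 markers from their overall means ran between -0.23 and 0.18 in FASD animals at 2 years and between -0.06 and 0.17 in FASD animals at 5 months. In control animals it ran between -0.15 and -0.04 at 2 years and between -0.04 and 0.22 at 5 months. Their part in the result for NASP was not tested.

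**Figure D2:**
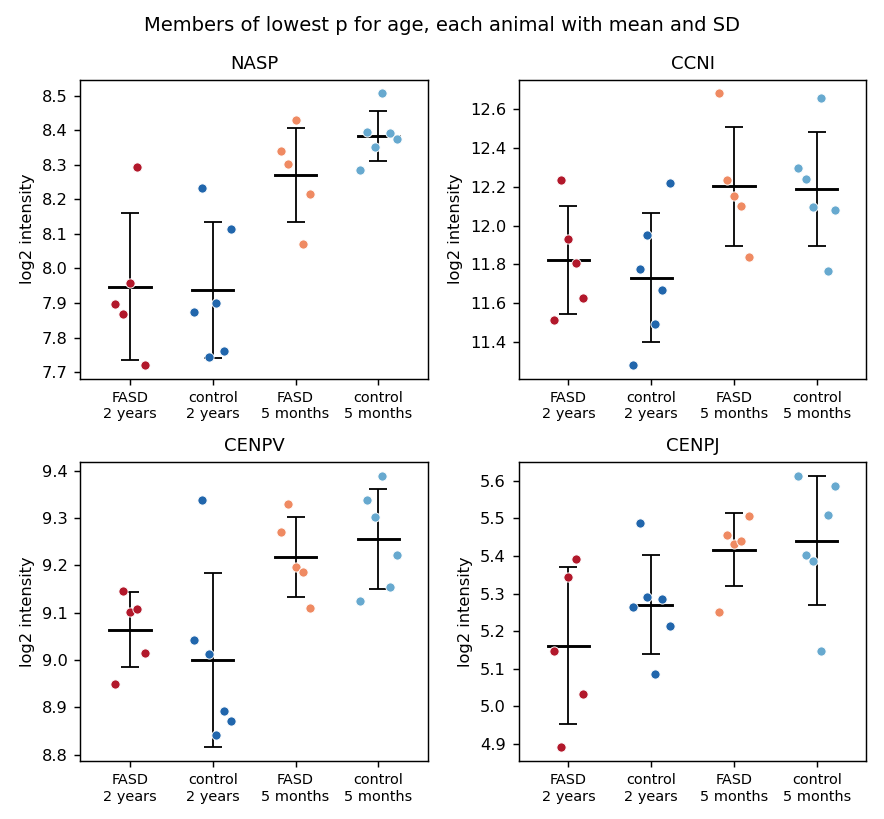
Log2 intensity of NASP, CCNI, CENPV and CENPJ in each animal, with the group mean (thick line) and SD (error bar). The groups are FASD at 2 years (n = 5), control at 2 years (n = 6), FASD at 5 months (n = 5) and control at 5 months (n = 6). The 2-year groups of NASP have means of 7.95 and 7.94, against 8.27 and 8.38 at 5 months. The ages overlap in both exposures for the other genes and in FASD animals for NASP.

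Cyclins are the activating partners of CDKs, and 15 members carry such a name. For alcohol, 2 of the 15 had an unadjusted p under 0.05 and both were lower in FASD animals, where 6.01% of all rows were at that p and lower. CCNB1, cyclin B1, which drives entry into mitosis with CDK1, had values of 6.64, 6.71, 6.77, 6.79 and 6.80 in FASD animals at 2 years, against 6.65, 6.94 and 7.17 (lowest, median and highest) in control animals. Among animals of 5 months it had 6.60, 6.62, 6.76, 6.81 and 6.86 in FASD animals, against 6.58, 6.86 and 7.08 in control animals. At 2 years 5 of the 6 control animals were above every FASD value while the other was near the lowest, and at 5 months the groups overlapped widely. The difference was -0.15 (95% interval -0.29 to -0.02, unadjusted p = 0.0233, adjusted p = 0.579 by limma).

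CCNA2, cyclin A2 of S phase and G2, had values of 3.82, 3.91, 3.92, 3.93 and 4.23 in FASD animals at 2 years, against 3.96, 4.04 and 4.36 in control animals. At 5 months it had 3.73, 3.76, 3.93, 4.03 and 4.04 in FASD animals, against 3.71, 4.15 and 4.32 in control animals. At 2 years 4 of 5 FASD animals were below every control animal, the exception being animal 6. The difference was -0.16 (95% interval -0.32 to -0.01, unadjusted p = 0.0422, adjusted p = 0.59 by limma), and without control animal 6 at 5 months it was -0.14 with an unadjusted p of 0.0787. CCNE1, cyclin E1 of the entry into S phase, had a difference of 0.04 (95% interval included 0, unadjusted p = 0.469), and CCNF, an F-box cyclin, one of -0.04 (unadjusted p = 0.484).

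For age, CCNI, an atypical cyclin that is abundant in cells that no longer divide, had the largest difference among the members. Its values were 11.51, 11.63, 11.81, 11.93 and 12.23 in FASD animals at 2 years and 11.84, 12.10, 12.15, 12.24 and 12.68 in FASD animals at 5 months. In control animals they were 11.28, 11.72 and 12.22 at 2 years and 11.77, 12.17 and 12.66 at 5 months. The ages overlapped in both exposures, with 3 of 5 FASD and 3 of 6 control animals at 2 years below every animal at 5 months. The age difference was -0.42 (95% interval -0.67 to -0.17, adjusted p = 0.2 by limma).

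CCNJ had an age difference of -0.22 (unadjusted p = 0.00752, adjusted p = 0.29 by limma), and 4 of 6 control animals at 2 years were below every control animal at 5 months. CCNDBP1, which binds cyclin D1, was the 1 member with an unadjusted p under 0.05 that was higher at 2 years, by 0.14 (SE 0.05, adjusted p = 0.328 by limma). In FASD animals its values were 9.49, 9.57, 9.57, 9.61 and 9.73 at 2 years and 9.33, 9.38, 9.41, 9.48 and 9.51 at 5 months, so that 4 of 5 animals at 2 years were above all those at 5 months. The remaining cyclin names had age differences between -0.14 and 0.08. Among these were CCNK and CCNT2, partners of the transcriptional kinases CDK12 and CDK9, and CCNY, a partner of CDK14 and CDK16.

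Of the 15 CDK rows none had an unadjusted p under 0.05 for alcohol with all 22 animals. CDK17 lay near that threshold, and was under it in 9 of 22 fits with 1 animal left out and in 3 of 8 other settings. CDK1, the mitotic kinase, had a difference of 0.01 (SE 0.06), and its values lay between 2.97 and 3.48 in all 22 animals. CDK2 of S phase had 0.06 (unadjusted p = 0.433) and CDK4 of G1 had 0.02 (unadjusted p = 0.713). CDK17, a PCTAIRE kinase found in neurons, had the lowest p of the list for alcohol. Its values were 10.66, 10.72, 11.00, 11.12 and 11.28 in FASD animals at 2 years, against 10.84, 11.25 and 11.67 in control animals, and 10.51, 10.74, 10.93, 11.08 and 11.15 in FASD animals at 5 months, against 10.71, 11.04 and 11.35 in control animals. The groups overlapped at both ages, and the difference was -0.22 (SE 0.11, unadjusted p = 0.0503). Without control animal 6 at 5 months it was -0.25 (unadjusted p = 0.0256), and without FASD animal 2 at 5 months the unadjusted p was 0.113.

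For age, CDK16, another PCTAIRE kinase, had the single unadjusted p under 0.05 in this list. Its values were 9.19, 9.24, 9.32, 9.37 and 9.50 in FASD animals at 2 years and 9.40, 9.44, 9.44, 9.48 and 9.86 in FASD animals at 5 months. In control animals they were 9.21, 9.23 and 9.43 at 2 years and 9.23, 9.36 and 9.60 at 5 months. The value of 9.86 belonged to FASD animal 2 at 5 months. The age difference was -0.17 (SE 0.06, adjusted p = 0.354 by limma) and was -0.13 (unadjusted p = 0.0287) without that animal. The kinases of transcription, CDK7, CDK8, CDK9, CDK12, CDK13 and CDK19, had age differences between -0.05 and 0.08.

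Among 6 CDK inhibitor names, CDKN1B had the lowest p for alcohol of all members. It encodes p27, which holds CDK2 complexes inactive and keeps progenitors and neurons out of the cycle. At 2 years it had values of 7.97, 8.03, 8.15, 8.18 and 8.21 in FASD animals, against 7.99, 8.41 and 8.76 in control animals. The values at 5 months were 8.07, 8.12, 8.13, 8.19 and 8.20 in FASD animals, against 8.15, 8.33 and 8.41 in control animals. At each age FASD animals held a narrow low range, and the lowest control animals reached into it, with 1 of 5 FASD animals below every control animal at 2 years and 3 of 5 at 5 months.

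The difference for CDKN1B was -0.21 (95% interval -0.35 to -0.07, unadjusted p = 0.00471, adjusted p = 0.579 by limma), with an exact permutation p of 0.00416. It was -0.26 at 2 years and -0.17 at 5 months. For age it was 0.01 (95% interval -0.13 to 0.15). CDKN1A, which encodes p21, had -0.06 for alcohol (unadjusted p = 0.669) and -0.18 for age (unadjusted p = 0.206). CDKN2C and CDKN2D, inhibitors of CDK4 and CDK6, had 0.06 and 0.09 for alcohol, neither with an unadjusted p under 0.05. CDKN2AIP, named for its binding to a product of the CDKN2A locus, had -0.16 (unadjusted p = 0.0916). The 7 further genes with a CDK name, among them CDKL3 of the CDK-like kinases and the CDK5 activator CDK5R1, had alcohol differences between -0.06 and 0.06 and age differences between -0.12 and 0.04.

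All 4 measured E2F factors had alcohol differences below 0, and E2F5 alone had an unadjusted p under 0.05. E2F5 is a repressing member that works with the retinoblastoma relative p130. Its values at 2 years were 6.58, 6.95, 7.02, 7.07 and 7.08 in FASD animals, against 6.94, 7.09 and 7.24 in control animals. At 5 months they were 6.61, 6.91, 6.99, 7.06 and 7.30 in FASD animals, against 7.01, 7.18 and 7.44 in control animals. At 2 years the lowest value in FASD animals was far below the next, and the groups overlapped at both ages. The difference was -0.18 (SE 0.08, unadjusted p = 0.028, adjusted p = 0.58 by limma), and -0.13 (unadjusted p = 0.07) without FASD animal 2 at 5 months, which had the value of 6.61. E2F3, an activator, E2F4, a repressor, and E2F7, an atypical repressor, had alcohol differences between -0.06 and -0.01, and the 4 age differences ran between -0.09 and 0.00.

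**Figure D3:**
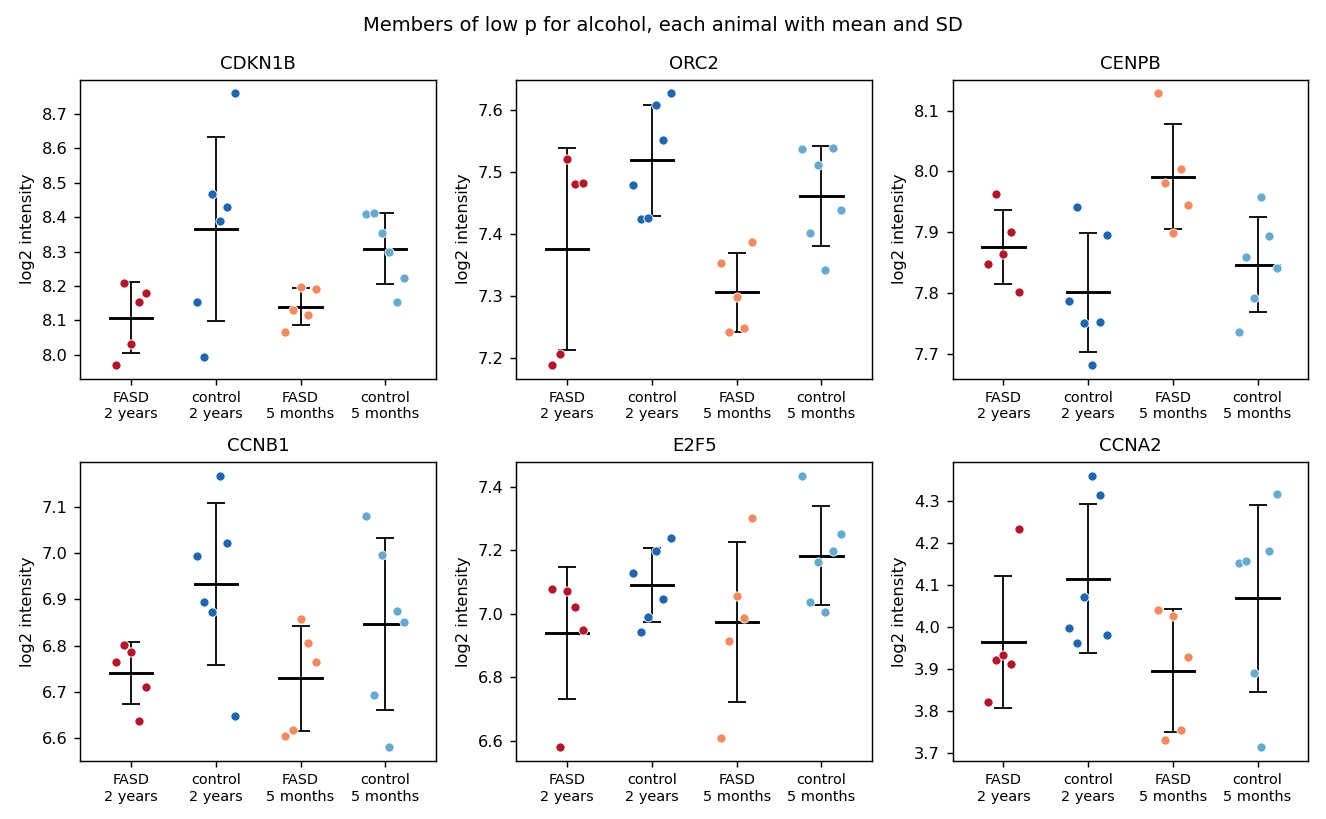
Log2 intensity of CDKN1B, ORC2, CENPB, CCNB1, E2F5 and CCNA2 in each animal, with the group mean (thick line) and SD (error bar), in FASD animals at 2 years (n = 5), control animals at 2 years (n = 6), FASD animals at 5 months (n = 5) and control animals at 5 months (n = 6). CENPB is higher in FASD animals by 0.11 on average and the other 5 are lower by averages whose log2 differences run between -0.21 and -0.15, with overlap of the groups at each age.

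The 8 genes of origin recognition and licensing had alcohol differences between -0.15 and 0.10. ORC2, a core subunit of the origin recognition complex, had values of 7.19, 7.21, 7.48, 7.48 and 7.52 in FASD animals at 2 years, against 7.42, 7.52 and 7.63 in control animals. At 5 months it had 7.24, 7.25, 7.30, 7.35 and 7.39 in FASD animals, against 7.34, 7.47 and 7.54 in control animals. At 5 months 3 of 5 FASD animals were below every control animal, and at 2 years the FASD animals split into 2 low values and 3 within the control range. The difference was -0.15 (95% interval -0.25 to -0.05, unadjusted p = 0.00572, adjusted p = 0.579 by limma), with an exact permutation p of 0.00253. It was -0.14 at 2 years and -0.16 at 5 months.

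Of the other origin subunits, ORC3 had -0.06, ORC4 had -0.08 and ORC5 had 0.01, with unadjusted p-values of 0.407, 0.319 and 0.844, and their differences from ORC2 were not tested. The helicase subunits MCM4 and MCM5 had -0.09 and 0.00, and CDC45 and MCM10, which help turn the loaded helicase into a moving fork, had -0.01 and 0.10. For age no gene of this list had an unadjusted p under 0.05, and the differences lay between -0.08 and 0.06.

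Polymerase and clamp loader names numbered 9, with POLDIP3 among them, which is not a polymerase subunit. None of the 9 had an unadjusted p under 0.05 for alcohol or for age. POLD3, an accessory subunit of polymerase delta, had the lowest p for alcohol, with values of 7.56, 8.02, 8.54, 8.55 and 8.69 in FASD animals at 2 years, against 7.86, 8.43 and 8.73 in control animals. Among animals of 5 months it had 8.08, 8.10, 8.40, 8.50 and 8.54 in FASD animals, against 8.38, 8.67 and 8.73 in control animals. The difference of -0.20 had a 95% interval of -0.45 to 0.05. It was -0.10 at 2 years and -0.31 at 5 months, with exact permutation p-values of 0.69 and 0.0152. POLA1, the catalytic subunit that starts strands with primase, had 0.06, POLE2 of polymerase epsilon had -0.11, and RFC2 and RFC5, subunits that load the sliding clamp, had 0.01 and 0.02. For age 7 of the 9 were below 0, the lowest being POLD3 at -0.16 (unadjusted p = 0.209).

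DSCC1, a subunit of the alternative clamp loader that helps join sister chromatids, had the lowest p of all members for the interaction, which is how far the alcohol difference at 2 years lies above that at 5 months. At 2 years its values were 3.97, 4.00, 4.21, 4.33 and 4.49 in FASD animals, against 3.83, 3.98 and 4.09 in control animals. At 5 months they were 3.73, 3.82, 3.86, 4.03 and 4.06 in FASD animals, against 3.95, 4.11 and 4.53 in control animals. FASD animals were thus the higher at 2 years, 3 of 5 exceeding the whole control range, and the lower at 5 months, 3 of 5 lying under it.

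The FASD minus control difference of DSCC1 was 0.25 (SE 0.10) at 2 years and -0.27 (SE 0.10) at 5 months, and exact permutation within each age gave p = 0.0433 and p = 0.026. The interaction was 0.52 (95% interval 0.22 to 0.81, unadjusted p = 0.00153 by limma) and had an adjusted p of 1.0 over all rows. Averaged over both ages the alcohol difference was -0.01, a value whose sign depended on the fit. The highest control value at 5 months, 4.53, belonged to control animal 6, and without it the interaction was 0.45 (unadjusted p = 0.00251).

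Over all members the interaction had an unadjusted p under 0.05 for 4 of 87 (4.6%), where 3.0% of all rows did, and all 4 were above 0, where 2.11% of all rows were at that p and above 0. The other 3 were AURKA, by the brighter of its probe sets, CDK12 and CDC25B. The median interaction was 0.05 over the members and 0.03 over all rows. No row of the table had an adjusted p under 0.05 for the interaction.

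CDC25B, a phosphatase that activates CDK1 before mitosis, had values of 8.07, 8.41, 8.43, 8.49 and 8.58 in FASD animals at 2 years, against 8.05, 8.14 and 8.38 in control animals. At 5 months it had 8.23, 8.30, 8.43, 8.47 and 8.53 in FASD animals, against 8.27, 8.45 and 8.52 in control animals. At 2 years 4 of 5 FASD animals exceeded the whole control range, while at 5 months the groups covered nearly the same range. The difference was 0.23 (SE 0.08) at 2 years and -0.05 (SE 0.08) at 5 months, with an interaction of 0.28 (unadjusted p = 0.0259 by limma). Its age difference was -0.27 in control animals, where 5 of 6 at 2 years were below every animal at 5 months, and 0.01 in FASD animals. Over both exposures it was -0.13 (unadjusted p = 0.0348 by limma), and without control animal 6 at 5 months -0.12 (unadjusted p = 0.054).

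CDK12, which phosphorylates RNA polymerase II, had values of 7.63, 7.65, 7.71, 7.74 and 7.86 in FASD animals at 2 years, against 7.44, 7.65 and 7.81 in control animals. The values at 5 months were 7.11, 7.46, 7.58, 7.68 and 7.81 in FASD animals, against 7.65, 7.80 and 7.86 in control animals. At 5 months 3 of 5 FASD animals were below every control animal, the lowest being animal 2. The interaction was 0.33 (SE 0.13, unadjusted p = 0.0194 by limma) and 0.23 (unadjusted p = 0.0428) without that animal.

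**Figure D4:**
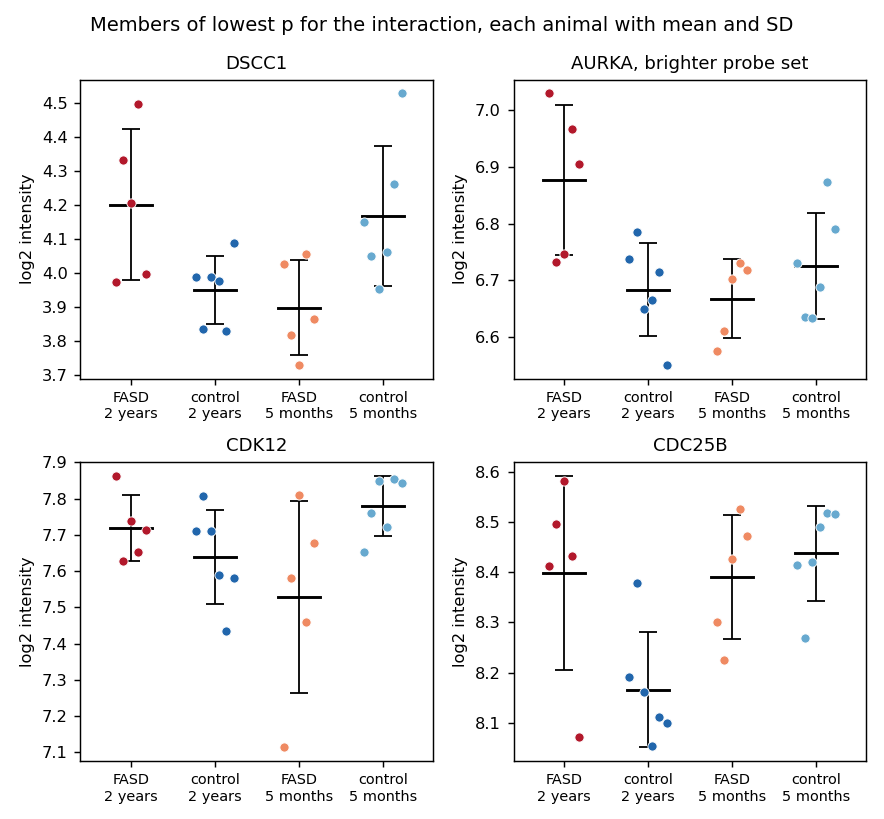
Log2 intensity of DSCC1, AURKA (brighter probe set), CDK12 and CDC25B in each animal, with the group mean (thick line) and SD (error bar), in FASD animals at 2 years (n = 5), control animals at 2 years (n = 6), FASD animals at 5 months (n = 5) and control animals at 5 months (n = 6). The mean of DSCC1 is 4.20 in FASD and 3.95 in control animals at 2 years, against 3.90 in FASD and 4.17 in control animals at 5 months.

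The centromere, centrosome and Aurora kinase names held 15 rows. AURKA, the kinase of the spindle poles, had 2 probe sets that gave unlike values. The brighter one (AURKA_a) had values of 6.73, 6.75, 6.91, 6.97 and 7.03 in FASD animals at 2 years, against 6.55, 6.69 and 6.79 in control animals, and 6.58, 6.61, 6.70, 6.72 and 6.73 in FASD animals at 5 months, against 6.63, 6.71 and 6.87 in control animals. Its difference was 0.19 (SE 0.07) at 2 years and -0.06 (SE 0.07) at 5 months, with an interaction of 0.25 (unadjusted p = 0.0133 by limma). The dimmer one (AURKA_b) had a difference of 0.11 at 2 years and 0.18 at 5 months, an average of 0.15 (unadjusted p = 0.0359, adjusted p = 0.585 by limma), and an interaction of -0.07 (unadjusted p = 0.596). The gene's response is uncertain where its probe sets differ. AURKB, the kinase of the chromosomal passenger complex, had an alcohol difference of 0.03 (unadjusted p = 0.589).

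CENPB, a centromere protein, had values of 7.80, 7.85, 7.87, 7.90 and 7.96 in FASD animals at 2 years, against 7.68, 7.77 and 7.94 in control animals. At 5 months it had 7.90, 7.95, 7.98, 8.0 and 8.13 in FASD animals, against 7.74, 7.85 and 7.96 in control animals. The whole control range was exceeded by 1 of 5 FASD animals at 2 years and by 3 of 5 at 5 months. The difference was 0.11 (SE 0.04, unadjusted p = 0.0168, adjusted p = 0.579 by limma), with an exact permutation p of 0.00582.

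For age, CENPV had the second lowest p of the members. Its values were 8.95, 9.02, 9.10, 9.11 and 9.15 in FASD animals at 2 years and 9.11, 9.19, 9.20, 9.27 and 9.33 in FASD animals at 5 months. In control animals they were 8.84, 8.95 and 9.34 at 2 years and 9.12, 9.26 and 9.39 at 5 months. All but 1 animal at 2 years in each exposure were below every animal of that exposure at 5 months, and the exception among control animals was animal 2, with 9.34. The age difference was -0.20 (SE 0.06, adjusted p = 0.171 by limma). Over 8 other settings the adjusted p ran between 0.0218 (array weights) and 0.185 (two-way analysis of variance). With 1 animal left out it ran between 0.0225 (without control animal 2 at 2 years) and 0.316 (without FASD animal 1 at 2 years). In each of these sets 1 fit was under 0.05.

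CENPJ, a protein of centriole assembly whose loss causes microcephaly in people, had values of 4.89, 5.03, 5.15, 5.35 and 5.39 in FASD animals at 2 years and 5.25, 5.43, 5.44, 5.46 and 5.51 in FASD animals at 5 months. In control animals they were 5.09, 5.27 and 5.49 at 2 years and 5.15, 5.46 and 5.61 at 5 months. The ages overlapped in both exposures. The age difference was -0.21 (SE 0.07, unadjusted p = 0.00413, adjusted p = 0.25 by limma). CDK5RAP2, another centrosome protein linked to microcephaly, had an age difference of -0.12 (unadjusted p = 0.132). The inner kinetochore subunits CENPK, CENPM, CENPN, CENPU, CENPW and CENPX had age differences between -0.14 and 0.07 and alcohol differences between -0.10 and 0.09, none with an unadjusted p under 0.05. CENPC, which anchors the kinetochore, had -0.21 for alcohol (unadjusted p = 0.105) and CENPF, a kinetochore protein of dividing cells, had 0.05 (unadjusted p = 0.461).

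Of the 7 other CDC names, CDC25B is given above, and CDC25A, its relative of the entry into S phase, had an alcohol difference of 0.05 at 2 years and -0.27 at 5 months (the second with an unadjusted p of 0.0489 by limma). CDC16 and CDC26, subunits of the anaphase-promoting complex, had alcohol differences of -0.07 and 0.03. The probe sets of CDC37 disagreed. The dimmer one (CDC37_b) had an age difference of -0.21 (unadjusted p = 0.0367, adjusted p = 0.472 by limma) and the brighter one (CDC37_a) one of 0.11 (unadjusted p = 0.127). At 5 months, leaving out FASD animal 2 gave the dimmer one an unadjusted p of 0.0892, and leaving out control animal 6 one of 0.0697.

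The comparisons within 1 age or 1 exposure share their animals with those above. At 2 years 6 members (6.9%) had an unadjusted p under 0.05 for alcohol, where 6.05% of all rows did, and at 5 months 5 (5.75%) did, where 4.83% of all rows did. For age, 9 (10.3%) did in FASD animals, where 6.99% of all rows did, and 6 (6.9%) did in control animals, where 5.55% of all rows did. In control animals all 6 were lower at 2 years, and they were NASP, CDC25B, CENPV, CCNI, CCNJ and DSCC1. In FASD animals 4 were lower at 2 years (NASP, CENPJ, CDK16 and CCNI) and 5 were higher (AURKA_a, DSCC1, CDC37_a, CCNDBP1 and CDK14). The whole table leaned the same ways, with 434 of its 639 such rows lower at 2 years in control animals and 542 of its 805 such rows higher at 2 years in FASD animals. The only adjusted p under 0.05 for a member in any of these comparisons was that of NASP for age with both exposures together, its adjusted p being 0.141 in control and 0.591 in FASD animals alone.

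Genes of the same processes that the naming rule does not reach were taken from 3 lists. Of 38 DNA replication genes 17 were measured, in 19 rows. For alcohol 14 of the 19 rows were below 0, where 53.2% of all rows were, with a median of -0.07. At 5 months 14 of the 19 were below 0, where 61.0% of all rows were. At 2 years 9 of the 19 were, where 46.1% of all rows were. An unadjusted p under 0.05 was held by 2 of the 19 (10.5%) for alcohol and by 2 for age, where 8.44% and 9.57% of all rows held one. ASF1A, a histone chaperone of H3 and H4, had an alcohol difference of -0.25 (SE 0.09, unadjusted p = 0.0099), and RNASEH2A, which removes RNA from DNA, one of 0.13 (unadjusted p = 0.0179). UHRF1, which helps copy DNA methylation at the fork, had an age difference of -0.46 (SE 0.13, unadjusted p = 0.00231, adjusted p = 0.209 by limma). SLBP, which binds the ends of histone messages, had one of 0.12 (unadjusted p = 0.0245). RPA3, a subunit that coats single-stranded DNA, had an alcohol difference of 0.02 at 2 years and -0.71 at 5 months, with an interaction of 0.73 (SE 0.34, unadjusted p = 0.0456).

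Of 72 mitosis genes 36 were measured, in 40 rows. For alcohol 32 of the 40 rows were below 0, where 53.2% of all rows were. At 5 months 32 of the 40 were below 0, where 61.0% of all rows were. At 2 years 21 of the 40 were, where 46.1% of all rows were. An unadjusted p under 0.05 was held by 5 (12.5%), where 8.44% of all rows held one. All 5 were lower in FASD animals, where 6.01% of all rows were at that p and lower. ANAPC1, the scaffold of the anaphase-promoting complex, had -0.21 (SE 0.08, unadjusted p = 0.0103), DSN1 of the kinetochore had -0.20 (unadjusted p = 0.0107), ECT2 of cytokinesis had -0.22 (unadjusted p = 0.0362), and STAG2 and RAD21, subunits of cohesin, had -0.16 and -0.12 (unadjusted p = 0.0367 and 0.0488). The list's median was -0.04, against -0.01 over all rows, and no row had an adjusted p under 0.05.

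For age 2 of these rows (5.0%), STAG2 at -0.17 and SMC3, a further cohesin subunit, at -0.49, had an unadjusted p under 0.05, where 9.57% of all rows did. Of 37 genes that control the cycle 22 were measured, in 24 rows. RB1, the retinoblastoma protein, had an alcohol difference of -0.25 (SE 0.08, unadjusted p = 0.00768, adjusted p = 0.579 by limma), and FBXO5, an inhibitor of the anaphase-promoting complex, an age difference of -0.14 (unadjusted p = 0.04). No other row of that list had an unadjusted p under 0.05 for alcohol or age, where 8.44% and 9.57% of all rows had one.

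Genes commonly used to mark dividing cells were measured for 6 of 9 listed symbols, namely CDK1, TYMS, MKI67, PCNA, CCNB1 and CCNA2, of which CDK1, CCNB1 and CCNA2 are members here. For alcohol 5 of the 6 were below 0, where 53.2% of all rows were, with a median of -0.12 against -0.01 over all rows. Of the 6, 2 had an unadjusted p under 0.05, CCNB1 and CCNA2, both lower in FASD animals. Over all rows 6.01% were at that p and lower. At 5 months all 6 were below 0 (61.0% of all rows), and at 2 years 4 were (46.1% of all rows). MKI67 had an alcohol difference of -0.04 (SE 0.05, unadjusted p = 0.443) and an age difference of -0.01 (SE 0.05, unadjusted p = 0.802), with values between 4.18 and 4.56 in all animals. So dim a probe set limits what small differences show. PCNA, the sliding clamp, had -0.10 for alcohol (unadjusted p = 0.114) and -0.01 for age (unadjusted p = 0.885). The mean deviation of the 6 markers ran between -0.11 and 0.02 in FASD animals and between -0.06 and 0.17 in control animals at 2 years. At 5 months it ran between -0.14 and 0.08 in FASD animals and between -0.18 and 0.21 in control animals. The FASD and control ranges overlapped at both ages.

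The same mean over all 87 members, which averages many more rows, lay between -0.06 and 0.03 in FASD animals and between -0.03 and 0.00 in control animals at 2 years, and between -0.05 and 0.03 in FASD animals and between 0.00 and 0.07 in control animals at 5 months. The lowest control animal at 5 months, at -0.0016, was just above the highest control animal at 2 years, at -0.0047, while the FASD ranges of the ages overlapped. In control animals the median age difference was -0.04 over the members and -0.01 over all rows.

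**Figure D5:**
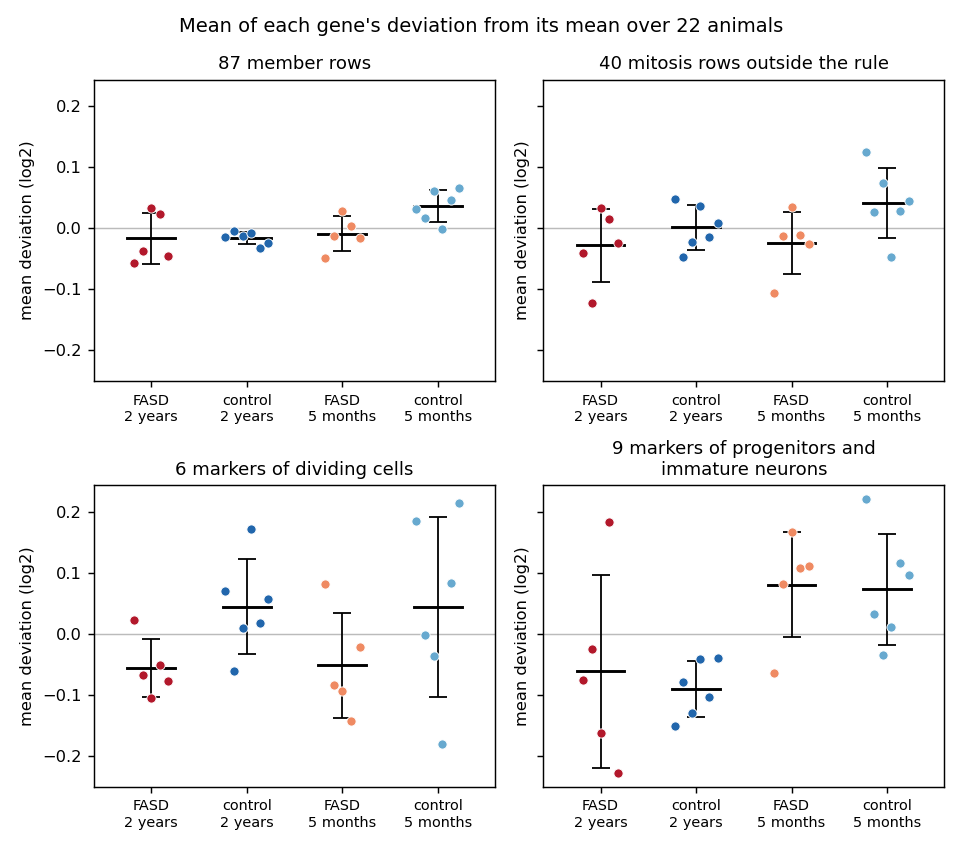
Mean over the rows of a list of each gene's deviation from its own mean over the 22 animals, on the log2 scale, per animal, with the group mean (thick line) and SD (error bar), in FASD animals at 2 years (n = 5), control animals at 2 years (n = 6), FASD animals at 5 months (n = 5) and control animals at 5 months (n = 6). The 87 members span -0.06 to 0.07 over all animals, and the 9 markers of progenitors and immature neurons span -0.23 to 0.22.

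Markers of the oligodendrocyte lineage, whose precursors divide after birth, were also measured. Of 8 precursor markers 5 were measured, all with alcohol differences above 0, between 0.08 and 0.49, and 1 of the 5 had an unadjusted p under 0.05, where 8.44% of all rows did. This was GPR17 of committed precursors, with an alcohol difference of 0.49 (SE 0.15, unadjusted p = 0.00443, adjusted p = 0.579 by limma) and an age difference of -0.49 (SE 0.15, unadjusted p = 0.00439). The mean deviation of the 5 markers ran between -0.31 and 0.39 in FASD animals and between -0.57 and 0.11 in control animals at 2 years. At 5 months it ran between 0.15 and 0.33 in FASD animals and between -0.14 and 0.08 in control animals, with no overlap. Of 11 myelin and oligodendrocyte markers 5 were measured, with alcohol differences between -0.08 and 0.30, of which 4 were above 0 and 2, UGT8 and MAL, had an unadjusted p under 0.05. Their median alcohol difference was 0.03 at 2 years, where 3 of 5 were above 0, and 0.42 at 5 months, where 4 of 5 were. The part of both lists in the values of the division genes was not tested.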

How the data were processed

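Messenger RNA of the left hippocampus of 22 male vervets was measured on Affymetrix rhesus macaque arrays, so that vervet RNA met macaque probes. The deposited values are log2 intensities from the authors' RMA run, in which background is corrected, arrays are brought to 1 distribution and probes are summarised per probe set. Its software version was not given in the sources used. Per the study's methods, rows were kept where annotated, detected in at least 6 arrays and, of several probe sets of a gene, of highest mean. By the platform annotation used here AURKA, CDC37 and CDK11B still have 2 rows each, so it differs from the authors' annotation for some rows. Which gene the authors gave such rows was not in the sources used. The table has columns for 24 arrays, of which 2, discarded by the authors, hold no values and were not analysed here. All arrays were hybridised on 1 day in random order, and no batch is labelled. The groups were taken from the titles, and control animal 6 at 5 months, whose source name gives 2 years, follows its title, description and age. Within a group, replicate numbers name the analysed animals and were not taken as pairs. The title of the discarded FASD array at 5 months also gives replicate 2, while the study's supplement gives it another number. FASD animal 2 at 5 months is here the analysed array of that number. The animals are separate, but their dams are not labelled, and p-values measure the spread between these animals.

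Symbols came from the platform annotation, which gives 1 symbol for 8730 rows, several for 88 and none for 2694. No genome was used, and no sequence is printed. Differences were fitted by limma 3.58.1 under R 4.3.3, with 1 mean per group, empirical Bayes moderation and Benjamini-Hochberg adjustment over 11512 rows. The fit was tested on simulated data. Alcohol is the mean of the 2 FASD minus control differences, age the mean of the 2 differences of 2 years minus 5 months. Single values were tested by exact two-sided permutation of the animals within age or within exposure. With 22 arrays, their number limits the precision. Alternatives were the two-way analysis of variance of the study's methods, robust variances with a trend on intensity, 1 probe set per symbol, the brighter part of the rows, arrays centred on their medians, array weights, quantile normalization, a block for the replicate number, and each animal left out in turn. The summaries used pandas 2.3.3 in Python 3.11.15, and figures were drawn with matplotlib 3.10.9.

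The members and lists were chosen with earlier results of these data known. Named genes were members with an adjusted p under 0.05, up to 10 of lowest unadjusted p under 0.05 for alcohol and for age and up to 5 for the interaction, NASP and DSCC1, the lowest p of each role list for alcohol and age, and up to 4 genes of each list outside the rule. Further members and list genes were named to describe their list, after their values were seen.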

Additional observations from a re-analysis of the deposited data

Results flagged for a closer look

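In 8 of 104 groups of 5 or 6 animals tested among the named genes, 1 animal lay far from the others of its group, and chance flags about 1 in 20 groups. The number given is the gap to the nearest animal as a share of the whole range of the group. FASD animal 2 at 5 months was the highest for CDK16 (9.86, gap 0.821) and the lowest for CENPJ (5.25, gap 0.712). Control animal 6 at 5 months was the highest for the dimmer AURKA probe set (6.60, gap 0.676) and for E2F7 (4.46, gap 0.671) and the lowest for POLD3 (8.38, gap 0.71). At 2 years FASD animal 6 was the highest for CCNA2 (4.23, gap 0.727) and for CDKL3 (5.54, gap 0.765), and FASD animal 2 was the lowest for E2F5 (6.58, gap 0.74).

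For 4 members the FASD minus control difference was not the same at 2 years and at 5 months by the interaction test of limma at an unadjusted p under 0.05. The interaction was 0.5174 for DSCC1 (unadjusted p = 0.00153), 0.2504 for the brighter AURKA probe set (unadjusted p = 0.0133), 0.3324 for CDK12 (unadjusted p = 0.0194) and 0.2797 for CDC25B (unadjusted p = 0.0259). Each had an adjusted p of 1.0 over all rows.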

How the results depend on the processing

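The call of NASP for age and the count of 0 adjusted calls for alcohol held in all 30 alternatives, where alcohol had between 2 and 11 members at an unadjusted p under 0.05. Of 970 values of named genes under alternatives, 8 changed sign, all of DSCC1 for alcohol, which was 0.0037 with arrays centred, 0.0068 with array weights and between -0.0464 and 0.0263 with 1 animal left out. Among the 36 members in the brighter part of the rows, fewer members were tested, and 2 had an unadjusted p under 0.05 for alcohol, both lower in FASD animals, 5 were lower at 2 years, 1 passed for the interaction, 2 for alcohol at 2 years and 0 for alcohol at 5 months. Array weights gave 11 for alcohol, 8 for the interaction, 10 for alcohol at 5 months, 11 for age in control animals and 2 adjusted calls for age, CENPV beside NASP. The cause was not tested. For these counts and those that follow, the share of all rows in the same fit is not given. These counts therefore do not show a change particular to the members. Leaving out 1 animal gave 5 to 11 for alcohol (11 without FASD animal 6 at 2 years), 3 to 7 lower in FASD animals (3 without control animal 1 at 5 months), 7 to 14 for age (14 without FASD animal 2 at 2 years), 1 to 2 adjusted calls for age and 3 to 7 for the interaction (2 and 7 without control animal 2 at 2 years). It gave 4 to 14 for alcohol at 2 years (14 without that control animal), 3 to 7 for alcohol at 5 months (3 without control animal 5 or FASD animal 5) and 5 to 12 for age in FASD animals (5 without FASD animal 1 at 2 years or FASD animal 2 at 5 months). Centring moved the member median for alcohol to 0.00.

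With the replicate number as a block 6 members had an unadjusted p under 0.05 for alcohol, 9 for age and 4 for the interaction, and no call at an adjusted p under 0.05 changed. Same-numbered animals deviated together with correlations between -0.33 and 0.39 over 30 pairs, 13 above 0.1. Their median was 0.09, against -0.02 over 151 pairs of different numbers, and 8 of 22 animals were closest to their own number. These values do not settle whether the numbers mark pairs. Per the study's methods cases and controls alternated at sacrifice, and whether the numbers follow that order is not given. The numbers were not read as pairs in the main fit. Dim probe sets, such as those of CDK1, CCNA2, DSCC1 and MKI67, limit what small differences show, and signal over background was not in the values used.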
